A study of Capsicum annuum with 78 samples.

Results

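In leaves of the pepper *Capsicum annuum*, 34 of the 35884 genes in the read count table were lower under heat than in the mock at every time point and stayed within a set distance of the mock in cold, mannitol and NaCl. These genes were selected on the measured values. Counts were divided by the library total and scaled to counts per 1000000 reads (CPM), the mean of log2(CPM + 1) was taken over the 3 libraries of a group, and the difference was the stress mean minus the mock mean of the same time. Genes with a mean mock CPM of 2 to 1000 and a range of mock means under 1.5 on this log2 scale formed a window of 13391 genes. Within it, a gene was selected where the heat difference was -0.8 or lower at all 5 times and the absolute difference was under 1 at all times of the other 3 stresses. The rule allowed at most 150 genes, so the limit on their number was not reached. All stress against mock values below therefore describe what the selection used, and they are no test of it.

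The plants were of the cultivar CM334, 6 weeks old, and kept at 24 °C with 16 h of light and 8 h of dark. Heat was 40 °C, cold was 10 °C, and osmotic and salt stress were 50 mL of 400 mM mannitol or 400 mM NaCl. Leaves were taken after 3, 6, 12, 24 or 72 h of a stress, and from mock plants at those times and at 0 h, with 3 biological replicates per group, each pooled from 4 plants. The 78 libraries held 4310398 to 7667094 counts, with 4310398 to 5635353 in the 15 heat libraries and 5146981 to 7256552 in the 18 mock libraries. HSP21 (scaffold303.8), a small heat shock protein of the chloroplast, was at 1305 to 9729 CPM in the heat libraries and at 0.305 to 4.34 CPM in the mock libraries, so no heat library overlapped a mock library for this gene.

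Leaf cells meet high temperature with heat shock transcription factors, which switch on chaperones that keep other proteins folded, while many transcripts of growth and photosynthesis become scarcer. Cold, drought and salt have signalling routes of their own, among them the hormone abscisic acid for water loss and salt, and these routes share target genes with one another and with heat. The count table pairs identifiers with no gene names, and 0 of its identifiers matched the 48341 genes of the RefSeq name table, so no role and no sequence is given for the 34 genes. They are called by the end of their identifier, which starts with TC.CA.PGAv.1.6 in the table. Their identifiers name 33 scaffolds, and scaffold438.10 and scaffold438.47 were the only pair on a shared one.

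The limit on the other stresses removed most of the genes that met the heat condition. Of the window, 251 genes met the heat condition whatever cold, mannitol and NaCl did, and 217 of them passed the limit in at least 1 other stress, so that 13.5% were kept. Cold removed most. Among the 251 genes, 187 were past the limit in cold, 156 in NaCl and 65 in mannitol, and 47 were past it in all 3. Of the genes past the limit, 168 were lower at some time in cold and 38 higher, 145 lower in NaCl and 17 higher, and 62 lower in mannitol and 5 higher. The groups with the most such genes were NaCl 24 h (126 lower), cold 12 h (100 lower) and cold 72 h (96 lower). The median differences of the window genes in these groups were 0.19, -0.34 and 0.38, in the same order. Shares of the window past the limit in each direction are not given, and all stresses share the mock libraries of a time with heat. Nothing is therefore read from these directions. The largest absolute difference over the 15 groups had a median of 1.002 in the window. A single group was enough to remove 42 of the 217 genes. The mean heat difference over the 5 times had a median of -1.42 in the 34 genes and of -1.54 in the 217 removed genes. The opposite rule, for genes higher in heat at every time, gave 120 genes before any limit on their number. With TMM scaling (trimmed mean of M values) of the libraries in place of their totals, the higher and lower counts were 80 and 51, and with RLE scaling (median of ratios) they were 82 and 54. The heat condition alone, whatever the other stresses did, was met by 376 genes with TMM scaling, and 241 of them were among the 251.

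**Figure D1:**
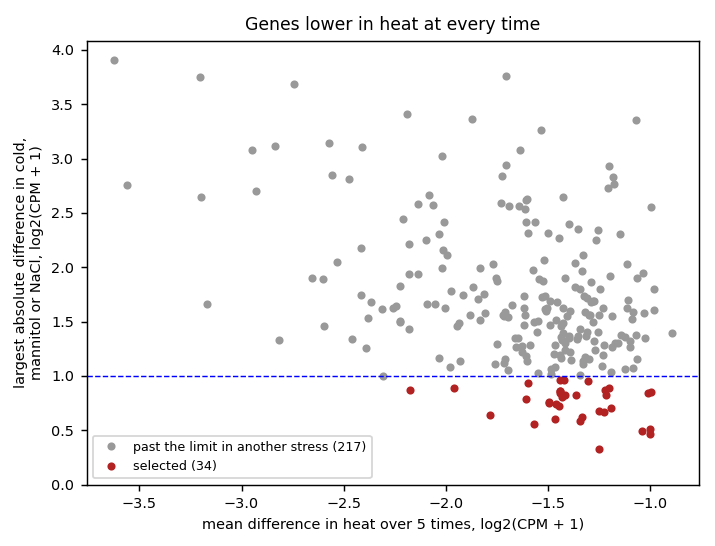
Each point is 1 of the 251 genes that were lower in heat at every time. The x axis is the mean heat difference over 5 times and the y axis the largest absolute difference in cold, mannitol or NaCl, both on the log2(CPM + 1) scale, and the dashed line marks the limit of 1, with the 34 selected genes (red) below it and the 217 others (grey) above it.

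The selected genes ranged from weakly to strongly expressed in the mock. Their mean mock CPM had a median of 32.1, against 18.3 in the window, and ran from 2.90 to 484, with 7 genes over 100 CPM and 9 genes under 10 CPM. CPM is not divided by gene length, so these values rank reads and not molecules between genes. The CPM of all 34 genes together was 2086 to 2762 in the mock libraries (median 2330, n = 18) and 812 to 1128 in the heat libraries (median 933, n = 15). The summed value was 1863 to 3098 in the 45 libraries of cold, mannitol and NaCl. Every heat library was thus below every other library for the sum, which the selection of the genes fixes in direction. In leaf tissue sequenced in bulk, fewer cells of a type and less RNA per cell cannot be told apart.

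Under heat the selected genes stood well below their mock level at each time. In the order of the 5 time points, from 3 h to 72 h, the median gene was at 32.4%, 35.05%, 38.7%, 33.96% and 35.03% of its mock mean CPM. The median differences in the same order were -1.35, -1.40, -1.25, -1.31 and -1.32 on the log2(CPM + 1) scale, while the window genes had medians of 0.10, 0.18, 0.09, 0.17 and 0.23. With TMM scaling in place of library totals, the window medians were between -0.04 and 0.02. The single values of the 34 genes ran from -2.77 for scaffold688.1 at 6 h to -0.81 for scaffold157.6 at 72 h. The 6 h value was the lowest in 11 genes and the 72 h value in 7, and 6, 6 and 4 genes had their lowest value after 3, 12 and 24 h. The weakest value was that of 72 h in 10 genes, of 12 h in 9, of 3 h in 8, of 6 h in 4 and of 24 h in 3. In the same order of times, the highest value fell there in 4480, 1421, 2566, 3017 and 1907 window genes. No time was shared as the deepest by most of the genes.

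**Figure D2:**
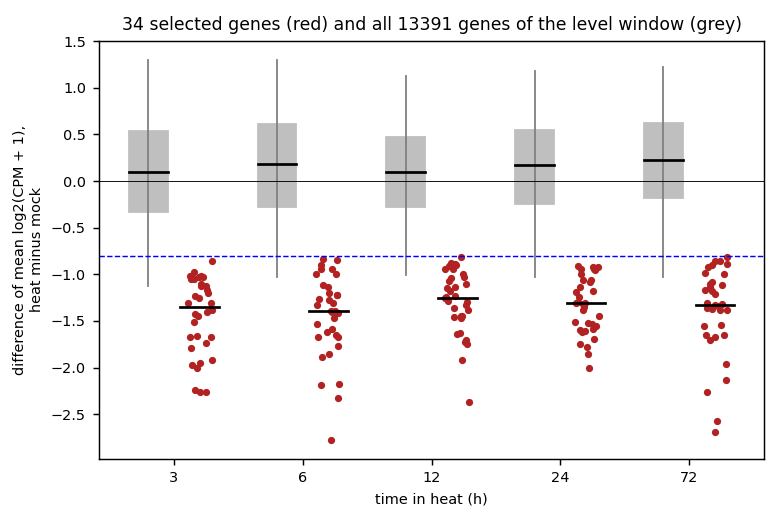
The y axis is the heat minus mock difference of mean log2(CPM + 1) at each time in heat (x axis, h). Red points are the 34 selected genes with their median as a black line, grey boxes span the middle 50% of the 13391 window genes with their median, grey lines span their 5th to 95th percentiles, and the dashed line marks the selection limit of -0.8, under which every red point lies by selection.

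In the quasi-likelihood test of edgeR, with p-values adjusted by Benjamini-Hochberg over 19588 genes, a gene was called where the adjusted p was under 0.05 and the absolute log2 fold change over 1. All 34 genes were tested. Heat of 3 h had 34 of them called lower (11.5% of all tested genes), heat of 6 h had 34 (13%), heat of 12 h had 33 (10.1%), heat of 24 h had 34 (11%) and heat of 72 h had 34 (13.4%). At all 5 times 33 were called, against 2.58% of all tested genes. The exception was scaffold853.17 at 12 h, with a log2 fold change of -0.94 ± 0.10 (SE). The rule used the same contrasts, so nothing is read from these counts. In the same test scaled by library totals alone, 21 genes were called at all 5 times, with no share of all tested genes given. At all 5 times, the 3 heat libraries lay below the 3 mock libraries of the same time in each of the 34 genes, against 6.2% of the window genes. All 15 heat libraries lay below all 18 mock libraries in 23 of the 34 genes, against 2.08% of the window genes. All 15 lay below the 3 mock libraries of 0 h in 30 genes, against 7.4% of the window genes.

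The gene with the lowest maximum difference in heat was scaffold688.1. Its mock libraries lay between 43.2 and 107 CPM (median 75.5, n = 18) and its heat libraries between 4.94 and 28.0 CPM (median 17.3, n = 15). The heat and mock ranges did not overlap. At 6 h, the 3 mock libraries were at 99.7, 107 and 74.8 CPM and the 3 heat libraries at 11.0, 17.9 and 10.5 CPM. At 72 h, the mock libraries were at 48.7, 43.2 and 55.9 CPM and the heat libraries at 9.26, 8.69 and 4.94 CPM. Both the mock and the heat level were lowest at 72 h. From 3 h to 72 h the 5 differences were -2.26, -2.77, -1.72, -1.55 and -2.58, which is 14.0% of the mock level at 6 h and 33.1% at 24 h. Its edgeR log2 fold changes ran from -3.01 ± 0.19 (SE) at 6 h to -1.78 ± 0.18 at 24 h.

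The gene scaffold134.196 had a similar mock level and a later low point. Its mock libraries lay between 61.2 and 111 CPM (median 77.2) and its heat libraries between 12.8 and 28.9 CPM (median 19.2), again with no overlap. At 3 h the heat libraries were at 25.1, 27.1 and 28.9 CPM, against 64.0, 69.7 and 72.3 CPM in the mock. At 12 h they were at 24.2, 19.0 and 15.8 CPM, against 104, 97.1 and 111 CPM. The mock level was highest at 12 h while the heat level was not, and the difference was -1.31 at 3 h and -2.37 at 12 h. NaCl at 24 h came near the limit for this gene, with 43.7, 51.0 and 45.3 CPM against 90.3, 87.6 and 82.7 CPM in the mock, a difference of -0.88.

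Among the 8 genes with the lowest maximum difference, another 3 had mean mock levels over 10 CPM. For scaffold125.27 the mock libraries were at 32.4 to 62.0 CPM and the heat libraries at 10.04 to 25.6 CPM. For scaffold129.31 they were at 12.2 to 25.7 CPM and 3.70 to 10.1 CPM. Neither gene had a heat library above its lowest mock library. For scaffold492.40 the mock libraries were at 13.8 to 34.5 CPM and the heat libraries at 4.58 to 15.9 CPM, so that the ranges over all times overlapped although those of each time did not. In this gene the mock level was lowest at 12 h, with 13.8, 18 and 16.5 CPM, where the heat libraries were at 7.0, 7.19 and 4.58 CPM.

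The other 3 of these 8 genes had mean mock levels under 10 CPM. For scaffold2.32 the mock libraries were at 6.68 to 10.8 CPM at all 6 times and the heat libraries at 1.27 to 4.18 CPM. Its mock range of 0.21 on the log2 scale was the narrowest of the 34 genes. For scaffold1813.5 the mock libraries were at 3.51 to 10.1 CPM and the heat libraries at 0.906 to 3.39 CPM, with 5 to 16 counts per heat library. For scaffold890.7 the mock libraries were at 4.34 to 13.9 CPM and the heat libraries at 0.546 to 3.18 CPM. The level of scaffold890.7 went in the mock from 5.63, 4.75 and 4.34 CPM at 3 h to 12.3, 11.9 and 13.9 CPM at 72 h. In heat it was at 0.890, 1.13 and 0.546 CPM at 3 h and at 1.01, 0.773 and 1.65 CPM at 72 h. Its heat difference went from -1.28 at 6 h to -2.69 at 72 h, the widest range of the 34 genes on the log2(CPM + 1) scale at 1.41.

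**Figure D3:**
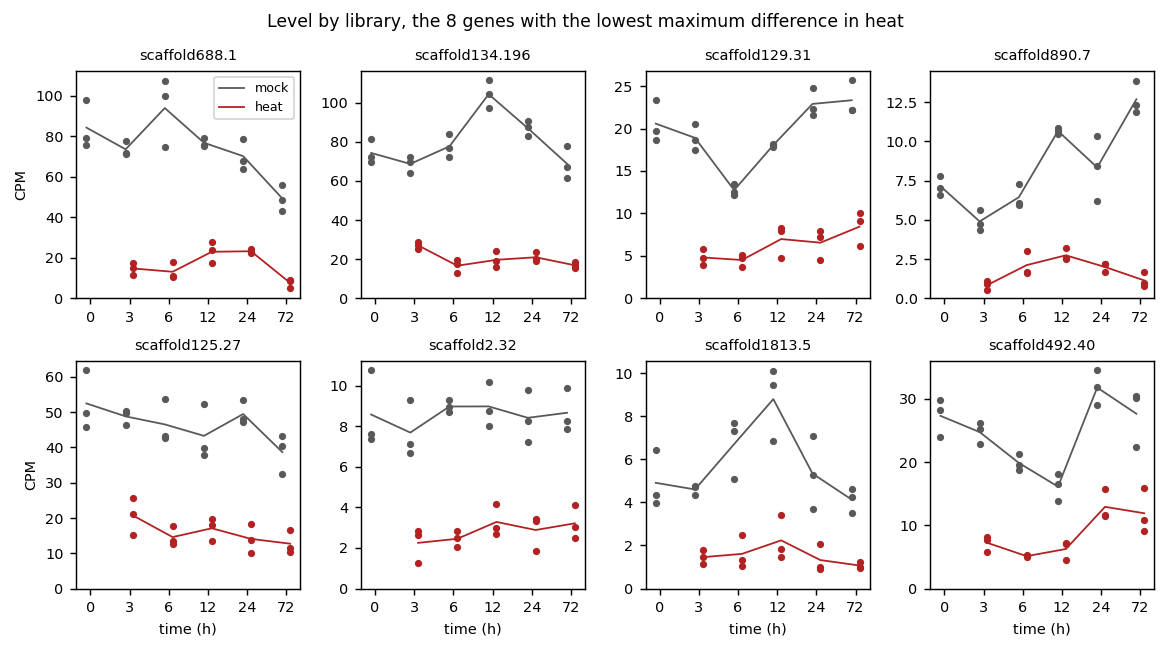
Each panel shows 1 of the 8 genes with the lowest maximum difference in heat, with CPM on the y axis and time in h on an evenly spaced x axis. Points are single libraries, 3 per group, and lines join the group means of mock (grey) and heat (red), and the red points stay under the grey points of the same time in every panel.

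The depth of the difference was steady in some genes and moved with time in others. The range of the heat difference over the 5 times had a median of 0.75, against 0.78 in the window. It was under 0.5 in 7 genes and over 1 in 12. The 1 added to the CPM shrinks differences at low CPM, so these ranges depend in part on the level of a gene. The narrowest ranges were those of scaffold1344.15 and scaffold1238.10. For scaffold1344.15 the mock libraries were at 92.3 to 132 CPM and the heat libraries at 41.8 to 71.2 CPM, and the difference stayed between -1.14 and -0.88. For scaffold1238.10 the mock level was highest at 6 h, with 495, 455 and 399 CPM, and so was the heat level, with 226, 233 and 213.3 CPM. At 72 h the mock libraries of this gene were at 241, 218 and 234 CPM and the heat libraries at 147, 107 and 129 CPM. The level moved with time in both conditions while the difference stayed between -1.13 and -0.86. The second widest range, 1.41, was that of scaffold764.10. Its mock level was highest at 6 h, with 286, 279 and 251 CPM, while the heat libraries were at 55.5, 55.1 and 49.2 CPM. At 72 h the mock libraries were at 95.6, 105 and 114 CPM and the heat libraries at 52.3, 55.8 and 56.0 CPM. The heat level of scaffold764.10 stayed between 45.5 and 74.4 CPM, and its difference went from -2.33 at 6 h to -0.92 at 72 h.

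The effect of heat at 72 h was also set against that at 3 h in the edgeR fit. The difference between the effects was called lower in 2 of the 34 genes (12.2% of all tested genes) and higher in 1 (10.2%). At an adjusted p under 0.05 with no limit on its size, it was lower in 9 and higher in 5, with no share of all tested genes given. The 3 called genes, named after their values were seen, were scaffold375.30, scaffold534.5 and scaffold165.30. For scaffold375.30 the heat libraries of 72 h held 1 count in all, and its call was lost without replicate 1 or without replicate 3. For scaffold534.5 the heat libraries were at 8.19, 6.79 and 6.73 CPM at 3 h and at 3.82, 1.35 and 2.68 CPM at 72 h, while the mock went from 13.5, 14.2 and 13.7 CPM to 12.9, 7.79 and 10.8 CPM. The effect of scaffold534.5 at 72 h minus that at 3 h was -1.28 ± 0.32 (log2, SE), with an adjusted p of 0.000821 by edgeR. For scaffold165.30 the heat libraries were at 1.07, 1.32 and 1.45 CPM at 3 h and at 4.23, 4.64 and 5.56 CPM at 72 h, against 9.28, 11.4 and 8.68 CPM and 12.5, 13.9 and 16.2 CPM in the mock. Its effect was weaker at 72 h by 1.15 ± 0.39 (log2, SE; edgeR adjusted p = 0.0142), a call that was lost without replicate 1 (1.19) or without replicate 2 (0.99).

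The 2 most strongly and the 2 most weakly expressed genes bound the set. The highest was scaffold771.17, with mock libraries at 335 to 643 CPM (median 505) and heat libraries at 144 to 244 CPM (median 179). Its difference went from -1.13 at 3 h to -1.68 at 72 h, with 167, 158 and 164 CPM in heat at 3 h and 179, 144 and 175 CPM at 72 h. The heat level was thus near the same value at both times, while the mock was at 394, 335 and 347 CPM at 3 h and at 508, 547 and 535 CPM at 72 h. The next highest was scaffold1238.10, above. The lowest was scaffold375.30, with mock libraries at 1.07 to 5.17 CPM and heat libraries at 0 to 1.96 CPM. Its heat libraries held 11, 8 and 4 counts at 3 h, 0, 0 and 3 counts at 24 h and 0, 1 and 0 counts at 72 h. Over the 3 libraries, 3 counts at 24 h were 11.8% of the mock level (exact 95% interval 2.31% to 37.4%, counting error only), and the single count at 72 h was 3.99% (0.0981% to 23.9%). The fitted fold change of this gene at 72 h depends on the prior count of the fit and is not given. The next lowest was scaffold108.7, with mock libraries at 2.67 to 7.38 CPM and heat libraries at 0.193 to 2.09 CPM, which was 1 to 9 counts per heat library.

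The selection limit of -0.8 cut through a run of near values. Just inside it were scaffold157.6, whose weakest difference was -0.81 at 72 h, and scaffold853.17, at -0.82 at 12 h. At 72 h scaffold157.6 was at 3.02, 4.06 and 3.09 CPM in heat and 7.41, 5.65 and 7.01 CPM in the mock. Just outside were scaffold764.7, at -0.79 at 3 h, and scaffold1305.23, at -0.78 at 72 h. At 3 h scaffold764.7 was at 80.5, 63.0 and 77.3 CPM in heat and 140, 123 and 119 CPM in the mock. From 6 to 24 h scaffold764.7 had differences of -2.06, -2.43 and -2.46, beyond the median of the selected genes, so a single time kept it out. Its identifier names the same scaffold as the selected gene scaffold764.10. With a limit of -1 in place of -0.8, 17 of the 34 genes would have remained.

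In cold, mannitol and NaCl the selected genes were bounded by the rule. The largest absolute difference of a gene over the 15 groups had a median of 0.80, against 1.002 in the window, where no such limit applied. It was under 0.5 in 3 genes (8.82%, against 6.21% of the window genes), which were scaffold213.9, scaffold1110.27 and scaffold157.6, named after their values were seen. For scaffold213.9 the mock libraries were at 20.4 to 33.2 CPM and the heat libraries at 7.89 to 12.7 CPM. Its differences in the other stresses lay between -0.22 in mannitol at 24 h and 0.32 in NaCl at 3 h. The mean difference over the 5 times was below 0 in 25 of the 34 genes in NaCl (34.9% of the window genes), in 24 in mannitol (39.5%) and in 14 in cold (51.5%). With TMM scaling, an alternative added after the data were seen, these counts were 29, 27 and 15, and the window shares were 47.2%, 48.1% and 53.9%. The group with the most genes below the mock was NaCl 24 h, with 29 of the 34 genes (85.3%) against 37.3% of the window genes, and a median difference of -0.32 against 0.19. In mannitol at 24 h 25 genes were below the mock (50.3% of the window genes), with a median of -0.28 against -0.0028 in the window. In cold at 3 h 9 genes were below the mock (58.1% of the window genes), with a median of 0.13 against -0.06. In cold at 72 h 21 genes were below the mock (32.9% of the window genes), with a median of -0.11 against 0.38. Scaling changed the order of the groups by median. With TMM scaling the medians of the 34 genes were -0.52 in cold at 72 h, -0.46 in NaCl at 24 h and -0.26 in mannitol at 24 h, and 26, 31 and 25 genes were below the mock. All stresses share the mock libraries of a time with heat, so these values are not independent of the heat differences.

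**Figure D4:**
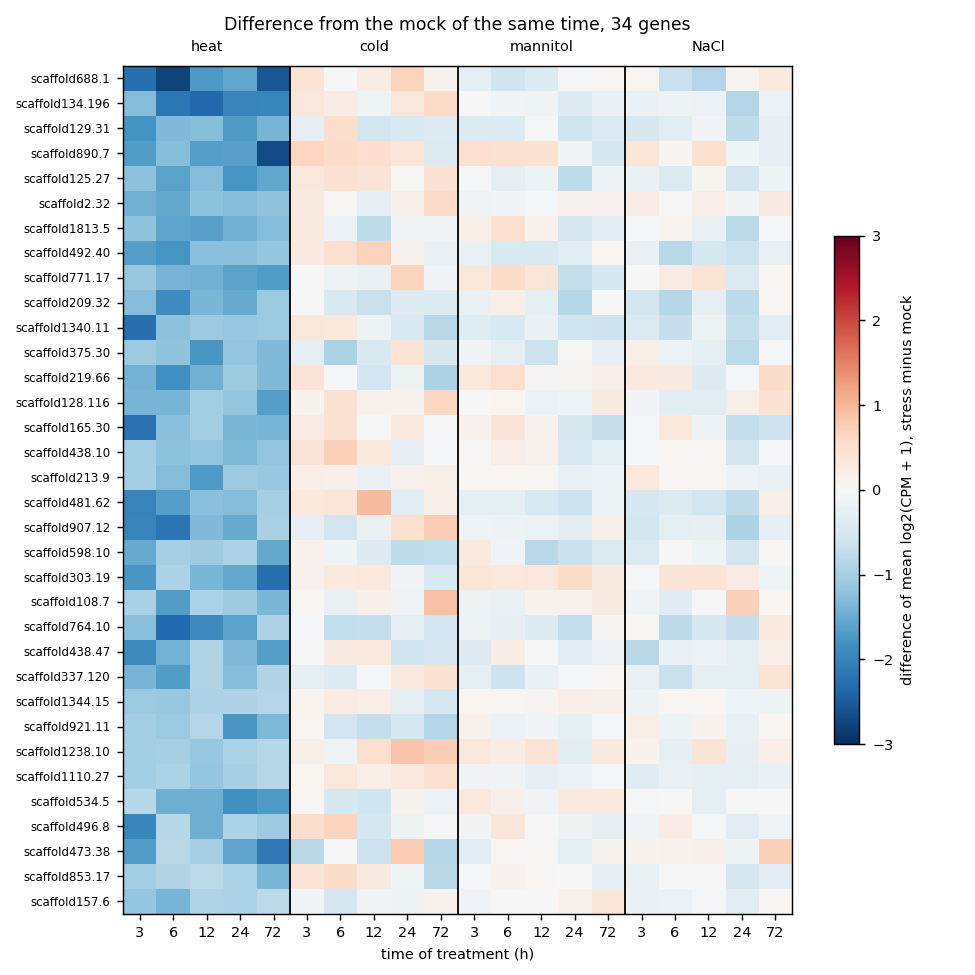
Rows are the 34 selected genes, ordered by their maximum difference in heat, and columns are the 5 times in h of each stress. Colour is the stress minus mock difference of mean log2(CPM + 1), with blue for lower and red for higher, and the heat columns are blue throughout (-2.77 to -0.81) while the other columns stay within 1 of the mock by selection.

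The lowest mean differences over the 15 other groups were those of scaffold209.32 (-0.37) and scaffold764.10 (-0.36), and each was below the mock in 12 of the 15 groups. In NaCl at 6 h scaffold209.32 was at 2.41, 3.96 and 3.19 CPM against 7.71, 6.83 and 5.24 CPM in the mock, a difference of -0.86. In heat at 6 h it was at 0.710, 2.07 and 0.617 CPM, lower than in NaCl in each library. In mannitol at 24 h scaffold764.10 was at 109, 92.7 and 84.2 CPM against 173, 142 and 164 CPM in the mock, and in heat at 58.2, 45.5 and 52.1 CPM. The highest mean differences were those of scaffold1238.10 (0.22) and scaffold890.7 (0.20). In cold at 24 h scaffold1238.10 was at 509, 483 and 507 CPM against 286, 263 and 280 CPM in the mock and 172, 136 and 124 CPM in heat. The 3 conditions did not overlap, with cold above the mock and heat below it. In mannitol at 3 h scaffold890.7 was at 7.99, 6.92 and 7.0 CPM against 5.63, 4.75 and 4.34 CPM in the mock.

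The edgeR fit scales by TMM and does not add 1 to the CPM, which shrinks differences at low CPM. Its fold changes are therefore not bound by the same limit. For scaffold1813.5, NaCl at 24 h gave -0.81 on the log2(CPM + 1) scale and -1.20 ± 0.31 (SE) in the fit. The part of each of these in the calls was not tested. Some selected genes were called in another stress. In cold 9 were called lower at 1 or more times (33.5% of all tested genes) and 2 higher (29.9%). All 9 were called at cold 72 h, and scaled by library totals the test called 2 lower and 1 higher. The 2 higher genes, scaffold481.62 and scaffold492.40, were called at cold 12 h, with log2 fold changes of 1.28 ± 0.08 and 1.03 ± 0.16 (SE), and without replicate 1 the count was 1. In cold at 12 h scaffold481.62 was at 362, 407 and 410 CPM against 203, 196 and 206 CPM in the mock and 90.6, 87.0 and 76.4 CPM in heat. In mannitol 2 were called lower (8.46%), scaffold209.32 at 24 h and scaffold598.10 at 12 h, and the count was 1 without replicate 1 or without replicate 3. None was called higher in mannitol (12%) by edgeR or by DESeq2, and 8 genes were higher at some time at an unadjusted p under 0.05. In NaCl 5 were called lower (15.3%), all at 24 h. The count was 7 with DESeq2, with RLE scaling or without the filter on low counts. It was 8 without replicate 1 and 3 with library totals. The 5 genes were scaffold134.196, scaffold1813.5, scaffold209.32, scaffold375.30 and scaffold907.12, with scaffold209.32 also called at 6 h. None was called higher in NaCl (17.1%) by edgeR or by DESeq2, and 8 genes were higher at some time at an unadjusted p under 0.05. The called genes were named after their values were seen. With no limit on the fold change, an adjusted p under 0.05 was reached at some time by more of the 34 genes. In cold 23 were lower and 22 higher, in mannitol 22 and 4, and in NaCl 26 and 6. No share of all tested genes is given at this limit, so nothing is read from these counts.

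The mock values also entered the rule, through the level window, the range limit and every difference, so their course is given as a description. The range of the 6 mock means had a median of 0.80 on the log2 scale, against 0.69 in the window. The mock level was highest at 6 or 12 h in 18 of the 34 genes (52.9%), against 68.7% of the window genes. It was lowest at 72 h in 14 genes (41.2% against 35.4%), at 6 h in 9 (26.5% against 17.0%) and at 24 h in 0 of 34 (0% against 13.6%). Against the mock at 0 h, 2 genes were called lower at 1 or more later times in the edgeR test (13.6% of all tested genes) and 1 higher (13.7%). The lower genes were scaffold219.66 at 24 and 72 h and scaffold492.40 at 12 h, and the count was 1 without replicate 3. The higher gene was scaffold375.30 at 3 and 6 h, with 5.17, 2.71 and 4.51 CPM at 3 h against 1.75, 1.77 and 2.25 CPM at 0 h, and the count was 0 without replicate 1. Mock leaves and heated leaves were highest at the same of the 5 times in 14 genes (41.2%, against 34.1% of the window genes) and lowest at the same time in 17 (50% against 27.1%). The spread between replicates was wider in heat than in the mock for these genes, with a median SD of 0.23 against 0.15 on the log2(CPM + 1) scale, while the window genes had 0.16 and 0.15. Lower counts carry more counting error, and the part of it in this spread was not tested.

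To see the heat difference in libraries the selection had not used, the rule was applied to the libraries of 2 replicate numbers and the difference was read in the third. Without number 1 the rule gave 31 genes, of which 31 were below the mock in the left out libraries at all 5 times and 20 (64.5%) were at or below -0.8 at all 5. Without number 2 it gave 26 genes, of which 26 were below the mock and 18 (69.2%) at or below the limit. Without number 3 it gave 31 genes, of which 31 were below the mock and 23 (74.2%) at or below the limit. In the window 13.1% to 13.5% of genes were below the mock at all 5 times in the left out libraries, and 1.43% to 1.6% were at or below the limit. The mean difference of the selected genes in the left out libraries had medians of -1.43, -1.44 and -1.38, and the highest single value was -0.30. The heat difference was thus below 0 in every gene so selected, and the limit of -0.8 at every time was met in part of them. Values below 0 were likely for genes chosen at -0.8 or lower in the other replicates of the same experiment. The window genes were not so chosen, so their shares are a description and no test. The limit on the other stresses held in part, since 17 of 465, 12 of 390 and 16 of 465 values in cold, mannitol and NaCl reached an absolute difference of 1 in the left out libraries. They came from 10, 8 and 11 genes.

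**Figure D5:**
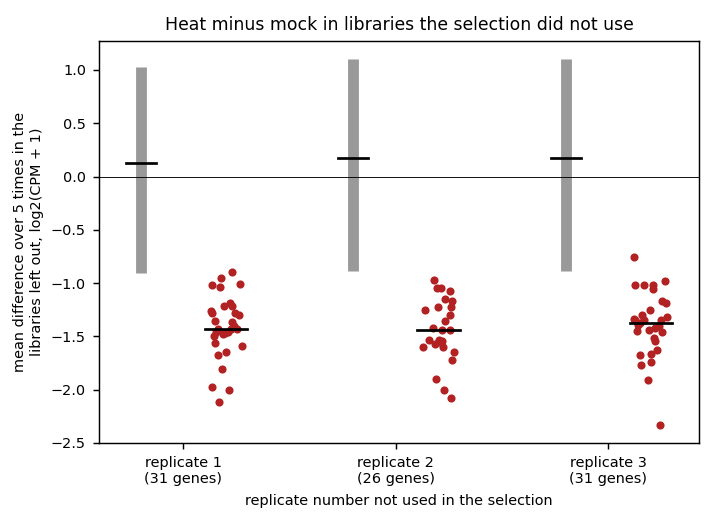
For each replicate number left out of the selection (x axis, with the number of genes then selected), red points are the mean heat minus mock difference over 5 times in the left out libraries, on the log2(CPM + 1) scale, with a black line at their median (-1.43, -1.44 and -1.38). Grey bars span the 5th to 95th percentiles of the window genes with their median, and every red point lies below 0.

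Which genes made up the list depended on the replicates and on the scaling. Over the 3 selections from 2 replicate numbers, 45 genes were selected at least once and 17 every time, and all 17 were among the 34. Of the 34, scaffold209.32, scaffold219.66 and scaffold157.6 were in none of the 3 selections. Without replicate 2, 22 of the 34 genes were selected again. With TMM scaling in the CPM, 51 genes met the rule and 24 of the 34 were among them. The 10 genes that then dropped out did so at the limit on the other stresses, 7 of them for being lower in cold at 72 h, where the median of the window moved from 0.38 with library totals to -0.03 with TMM. In heat, the medians of the 34 genes with TMM were -1.44, -1.55, -1.35, -1.49 and -1.54 from 3 h to 72 h, lower than with library totals at each time.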

How the data were processed

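RNA-seq was made from leaves of 78 samples in 26 groups of 3. The authors trimmed reads with cutadapt 1.9.1, checked them with FastQC 0.11.5, aligned them with HISAT2 to the pepper genome v.1.6 and counted them per gene of model v.2.0 with featureCounts 1.5.2, per the labels and methods. The deposited counts are whole numbers without normalization. The libraries were strand-specific, and the strand setting of the counting is not given in the sources used here, so reads of overlapping genes may be shared. Conditions, times and replicate numbers came from the sample labels. The count table held 0 columns of no sample.

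CPM used column totals and a pseudocount of 1. The tests used R 4.3.3 and edgeR 4.0.16 (glmQLFit, glmQLFTest), filterByExpr, TMM and a group factor over all libraries (52 residual degrees of freedom, common biological coefficient of variation 11.4%), with Benjamini-Hochberg adjustment within a contrast. SEs were derived from the log2 fold change and the F statistic. The scripts were tested on simulated data. Intervals are exact (Clopper-Pearson) and, like every count here, cover counting error only, since reads without molecular identifiers are not independent molecules. A sum of 3 counts or fewer in a group was treated as the floor.

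The genes and tests were chosen with earlier results of these data known. Genes were named by a rule: the 8 with the lowest maximum heat difference, the extremes of mock level, of range over time and of the mean of the other stresses, the genes next to the limit, and HSP21, whose symbol comes from the study's figure. Alternatives were DESeq2 1.42.0, RLE scaling (DESeq2's median of ratios), upper-quartile scaling, library totals, other filters on low counts, pseudocounts of 0.5 and 2, heat and mock libraries alone, the replicate number as a block, and each replicate left out.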

Additional observations from a re-analysis of the deposited data

Results flagged for a closer look

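Of the 34 genes, 3 were called for a heat effect at 72 h unlike that at 3 h, in the edgeR quasi-likelihood test. A call needed an adjusted p (Benjamini-Hochberg) under 0.05 and an absolute log2 difference over 1. Of all tested genes, 12.2% were called lower and 10.2% higher. At the adjusted p alone, 9 of the 34 genes were lower and 5 higher, with no share of all tested genes given. The effect was lower at 72 h in scaffold375.30 by -2.92 ± 0.93 (log2, SE; adjusted p = 0.009) and in scaffold534.5 by -1.28 ± 0.32 (adjusted p = 0.000821), and weaker at 72 h in scaffold165.30 by 1.15 ± 0.39 (adjusted p = 0.0142). For scaffold375.30 the value rests on 1 count over the 3 heat libraries of 72 h and on 23 counts at 3 h, so its size is set in part by the prior count of the fit. The call of scaffold375.30 was lost without replicate 1 (-2.11) and without replicate 3 (-2.69).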

How the results depend on the processing

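The count of the 34 genes called lower in heat at all 5 times was 33 in the TMM fit and 21 with library totals. With library totals, 2 were called lower and 1 higher in cold, 3 lower in NaCl, and 1 lower over time in the mock. The heat effect at 72 h was then called different from that at 3 h in 6. Shares of all tested genes are given for the TMM fit of all libraries alone. Nothing is read from the counts of calls under the other settings. The rule gave 34 genes, 51 with TMM, 54 with RLE scaling and 17 with a limit of -1, and the numbers of the 34 genes among them were 24, 24 and 17, and 22 with upper-quartile scaling. With TMM the rule gave 56, 48 and 45 genes without number 1, 2 and 3. All of them were below the mock at all 5 times in the left out libraries. The shares of the window genes, which were not chosen for their heat difference, were 19.8%, 20.2% and 21.1%. The limit was met by 31 (55.4%), 24 (50%) and 31 (68.9%) of these genes, against 2.2%, 2.38% and 2.54% of the window genes. Leaving out a replicate number gave 26 to 31 genes, of which 22 to 26 were among the 34, and 1 to 2 genes called higher in cold, 1 to 3 lower in mannitol, 6 to 8 lower in NaCl, 0 to 1 higher and 1 to 2 lower over time in the mock.

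With the replicate block, 33 genes were again called lower in heat at all 5 times. Same-numbered heat and mock libraries had correlations of their deviations from -0.16 to 0.08, and none of the 15 pairs was over 0.1. Of the 15 heat libraries, 5 correlated best with their own number. No pairing was seen, which cannot show that none exists, and the main fit did not treat these libraries as pairs. The difference of scaffold165.30 was 1.19 without replicate 1 and 0.99 without replicate 2. The causes of these shifts were not tested beyond the change of scaling or samples itself. The heat libraries of scaffold375.30 held 0 to 3 counts at 24 h and 72 h, too few for more than the counting intervals given with them.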
